A study of Sus scrofa with 4 samples.

Results

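The genes described here are 41 pig genes that repair broken DNA, 35 of homologous recombination, crosslink repair, mismatch repair and checkpoint signalling and 6 of end joining. They were taken from a list of gene symbols, matched to the count table by Ensembl identifier or, failing that, by position on the Sscrofa11.1 assembly. The list was chosen with earlier results of these data known, so its shares beside those of all genes are a description. Of the 41 genes, 40 had a row among the 25880 genes of the table, and 38 had enough reads to be among the 15739 genes tested. The samples were 4 bulk RNA-seq libraries from the cells of 1 pig. Ear skin fibroblasts of a post-neonatal animal, at passage 1, gave 1 library. Induced neural stem cell-like cells (iNSLCs), also at passage 1, gave 1 library, and arose after those fibroblasts received the episomal vector set EP-B and were cultured in NSM, a medium that the group had used before to bring primate pluripotent cells to a naive-like state. The vectors of this set, which are not built to integrate into the genome, carried the human genes LIN28, L-MYC, KLF4, OCT4 and SOX2, together with KLF2, NANOG, GLIS1, KDM4D and a dominant-negative form of mouse Trp53. Induced pluripotent stem cells (iPSCs) gave 2 libraries at passage 3, 1 from each of 2 clones, N1 and N2 in the labels, which were obtained by moving iNSLC colonies to an embryonic stem cell medium with activin A, TGF-β1 and the WNT secretion inhibitor IWP2. The clones, called clone 1 and clone 2 below, share 1 animal and the spread between them is the only replicate error in the series. Fibroblasts and iNSLCs have none of their own.

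Homologous recombination copies lost sequence from an intact sister DNA molecule. The MRE11, RAD50 and NBN complex recognises the broken end, RBBP8, EXO1, BLM and WRN help to cut 1 strand back, and BRCA1 with BARD1, PALB2 and BRCA2 loads the recombinase onto the single strand that is left. The route needs a sister molecule and so works in the S and G2 phases of the cell cycle, and pluripotent stem cells, which cycle fast with a short G1 phase, are known to use it often. End joining instead ligates the 2 ends directly, without a template and at any phase, through the Ku pair XRCC6 and XRCC5, the kinase PRKDC and the ligase complex of XRCC4 and LIG4. The kinases ATM and ATR signal the damage to CHEK2 and CHEK1, and the Fanconi anemia proteins open crosslinks between the strands.

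Most listed genes outside end joining were higher in iPSCs than in fibroblasts, and 4 of the 5 listed end joining genes tested were lower. In all, 23 of the 38 genes tested rose and 7 fell at an adjusted p under 0.05 in edgeR's quasi-likelihood test with Benjamini-Hochberg adjustment over all genes tested, while 29.6% of all 15739 genes were called higher and 27.5% lower. The members' shares were 60.5% and 18.4%. The median log2 ratio of iPSCs to fibroblasts was 1.12 over the 38 genes and 0.13 over all genes tested. Without end joining, 23 of 33 genes were higher and 3 lower, with a median of 1.40. The contrast with end joining holds for the listed genes only. Of 15 other genes of end joining and of the TP53BP1 pathway, 7 rose and 3 fell, and of 37 further recombination and crosslink repair genes, 15 rose and 5 fell. With libraries scaled by their total counts alone, 27 of the 38 were called higher and 3 lower, where 44.9% of all genes were called higher and 16.8% lower. The genes called lower were NBN, ATM, RAD51D, XRCC5, XRCC6, PRKDC and LIG4, and 3 of the last 4 of these, with RAD51D, depended on how libraries were scaled, as given with each gene. Levels are given in CPM, a gene's reads per fixed number of library reads, with library sizes corrected by the trimmed mean of M values (TMM), in the order fibroblast, iNSLC, clone 1 and clone 2, and fold changes are ratios of these levels with the 2 clones averaged.

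**Figure D1:**
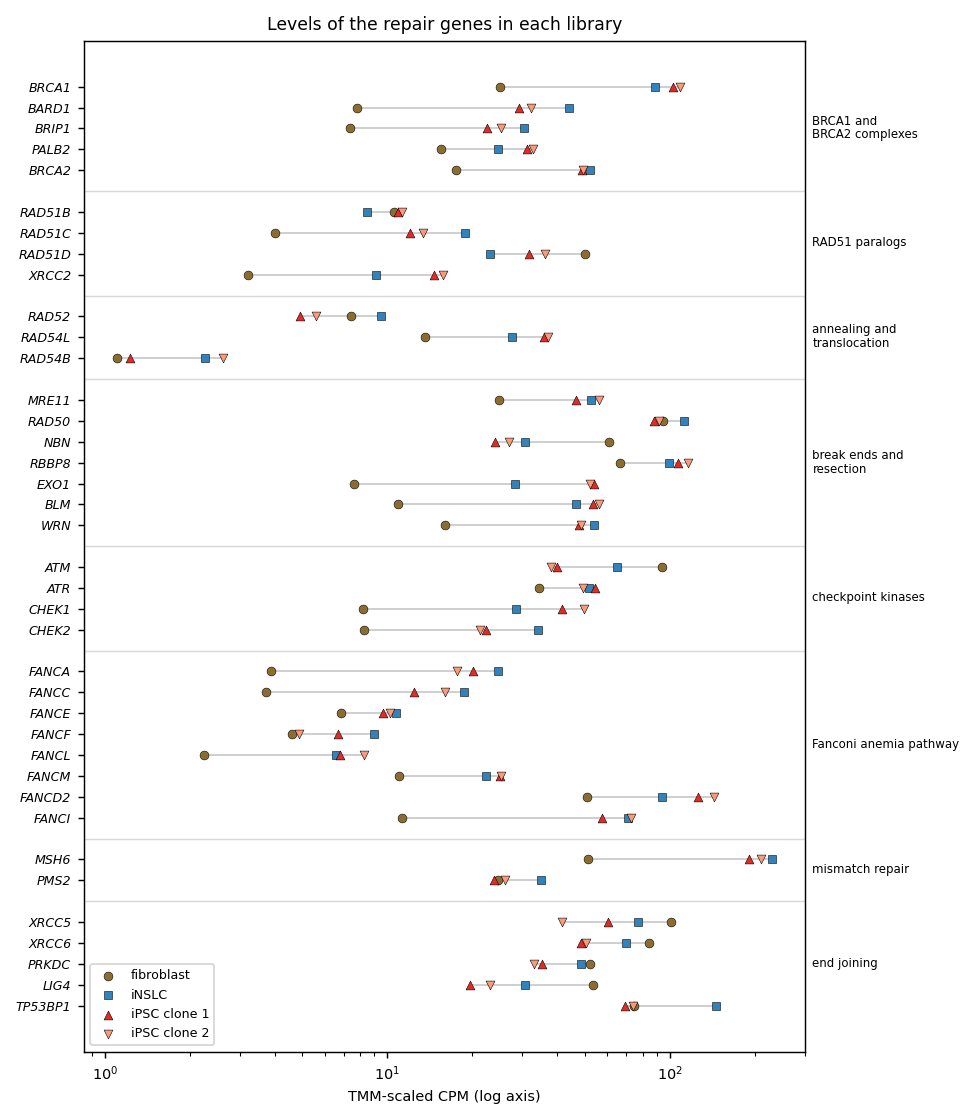
Level of each of the 38 tested repair genes in each library, in TMM-scaled CPM on a log axis, with 1 point per library and the genes grouped by role. Both iPSC points lie to the right of the fibroblast point for genes such as EXO1, from 7.62 to 54 and 52.1 CPM, and to its left for LIG4, from 53.4 to 19.7 and 23.1 CPM.

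Of the libraries, total counts ran from 21640374 to 62421521, and the fibroblast library was the deepest. In the fibroblast library a few genes took a large share of the reads, COL1A1 alone 64539 CPM, and its TMM factor of 0.742 lay below the 1.09 to 1.11 of the others. Scaling by total counts instead raised every iPSC to fibroblast ratio by 0.57 on the log2 scale. The cell types were checked on marker genes. All 6 fibroblast markers found were lower in both clones than in fibroblasts, all 5 pluripotency markers found were higher, and POU5F1, which encodes OCT4, went from no read in fibroblasts to 295 and 275 CPM in the clones. Of the 6 neural stem cell markers, 4 were at least 2-fold higher in iNSLCs than in fibroblasts and none was 2-fold lower, while in iPSCs 3 were called higher than in fibroblasts, PAX6 and ZNF521 lower and SOX1 neither. MSI1 lay at 0.345, 151, 85.2 and 97.1 CPM and PAX6 at 21.5, 14.6, 2.32 and 6.71 CPM. Every pluripotency marker tested was also at least 2-fold higher in iNSLCs than in fibroblasts, with a median log2 ratio of 6.69. Summed over the pluripotency markers, the level was 0.669 CPM in fibroblasts, 302 in iNSLCs, and 887 and 843 in the clones. What part reads from the vector genes had in these sums was not tested. The iNSLC library kept 21575 CPM of COL1A1, against 447 and 401 in the clones, and the sum over the 6 fibroblast markers was 137210 CPM in fibroblasts, 52540 in iNSLCs, and 852 and 876 in the clones. Fewer cells of a type cannot be told apart from less RNA per cell in bulk libraries. What part retained fibroblast RNA had in the iNSLC values below was not tested. Blood markers stayed between 2.58 and 4.89 CPM in sum. The 2 endothelial markers summed to 19.5, 22.5, 6.0 and 14.4 CPM, and of these PECAM1 was called lower and CDH5 higher in iPSCs than in fibroblasts, with both at least 2-fold apart between the clones.

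The genes that load the recombinase all rose. BRCA1, a ubiquitin ligase subunit (chromosome 12, 19787858 to 19853505), stood at 25.0 CPM in fibroblasts, 88.9 in iNSLCs, and 102 and 108 in the iPSC clones, a 4.22-fold higher level in iPSCs (log2 fold change 2.08, SE 0.13, adjusted p = 0.000512). Both clones and the iNSLC library lay far above the fibroblast library and within a narrow range of each other. BARD1, the partner without which BRCA1 is unstable, gave 7.82, 44.1, 29.2 and 32.2 CPM, 3.93-fold higher in iPSCs (adjusted p = 0.00114), with its highest level in iNSLCs. BRIP1, a helicase that binds BRCA1, gave 7.41, 30.5, 22.5 and 25.2 CPM and was 3.22-fold higher (adjusted p = 0.00247), again with iNSLCs highest. BRCA2, which carries the recombinase to the DNA, rose 2.80-fold from 17.5 CPM to 48.8 and 49.2 (adjusted p = 0.00124). PALB2, which ties BRCA2 to BRCA1, rose 2.08-fold (adjusted p = 0.00563) and had the smallest ratio of the 5. Of the exon bases of BRCA1, 14.0% overlap those of NBR1, and how reads in such overlaps were counted is not known from the sources used.

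The paralogs of the recombinase, which stabilise its filament, had differing patterns. XRCC2 (chromosome 18, 4808467 to 4835802) had 3.22 CPM in fibroblasts, 9.11 in iNSLCs, and 14.7 and 15.8 in the iPSC clones, 4.73-fold higher in iPSCs (adjusted p = 0.00209). RAD51C gave 4.02, 18.8, 12.0 and 13.4 CPM and rose 3.16-fold (adjusted p = 0.00439), with iNSLCs above both clones. RAD51B was near level at 10.5, 8.48, 10.9 and 11.2 CPM, and its difference did not pass the test (adjusted p = 0.791). RAD51D, named here by position (chromosome 12, 40054181 to 40068821), was the most abundant of the 4 in fibroblasts per exon length, at 18.2 CPM per kilobase against 0.892 for XRCC2. Its levels of 50.1, 23.0, 31.7 and 36.2 CPM put iNSLCs lowest. In iPSCs it was 1.48-fold lower than in fibroblasts (adjusted p = 0.0307), a call that DESeq2 did not make (adjusted p = 0.0898) and whose log2 fold change was 0.0090 with libraries scaled by total counts. For XRCC3, the fifth paralog, the row lies on an unplaced scaffold and held no count in any library. The same was true of all 1521 genes on unplaced scaffolds, so these files do not measure it.

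Among the genes of annealing and strand exchange, RAD54L, a motor that helps the recombinase to invade the sister molecule, gave 13.6, 27.5, 35.9 and 37.1 CPM and rose 2.69-fold (adjusted p = 0.00210). RAD52, which anneals single strands, gave 7.45, 9.49, 4.90 and 5.57 CPM and was not called (adjusted p = 0.160). Its clones lay below the fibroblast library, by a log2 fold change of −0.51 that became 0.064 with total counts, and 58.1% of its exon bases overlap WNK1 and ERC1. RAD54B, a relative of RAD54L, had the fewest reads of the tested members, at 1.10, 2.27, 1.22 and 2.62 CPM, and was not called (adjusted p = 0.319). The row with its name covers 900 exon bases at chromosome 4, 42305773 to 42311344. A neighbouring row without a symbol, ENSSSCG00000006101, spans the RefSeq position of RAD54B and gave 5.23, 11.9, 11.2 and 12.9 CPM, a log2 fold change of 1.21 in iPSCs over fibroblasts (adjusted p = 0.0132). With that row in its place, 24 in 38 genes were called higher.

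Genes that recognise and cut back the broken end were mostly higher, with the largest rise of all members in EXO1. This exonuclease (chromosome 10, 15317574 to 15359074) had 7.62 CPM in fibroblasts, 28.3 in iNSLCs, and 54 and 52.1 in the iPSC clones, 6.96-fold higher in iPSCs than in fibroblasts (log2 fold change 2.80, SE 0.16, adjusted p = 0.000394). It was higher in iNSLCs than in fibroblasts and higher again in both clones, and the clones differed from each other by far less than from either other library. The helicase BLM gave 10.9, 46.5, 53.6 and 56.0 CPM and rose 5.03-fold (adjusted p = 0.000475), and WRN, a related helicase with nuclease activity, gave 16.0, 54, 47.6 and 48.4 CPM and rose 3.0-fold (adjusted p = 0.00106). RBBP8, which starts resection together with MRE11, rose 1.68-fold (adjusted p = 0.00777) from 66.4 CPM. MRE11 itself, the nuclease of the end-binding complex, rose 2.07-fold (adjusted p = 0.00725).

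The 3 subunits of the MRE11 complex had 3 different patterns. Against the rise of MRE11, from 24.8 CPM in fibroblasts to 46.4 and 56.2 in the clones, NBN, the subunit that brings in ATM (chromosome 4, 46787470 to 46903999), gave 60.8, 30.8, 24.1 and 27.0 CPM. NBN was 2.38-fold lower in iPSCs (adjusted p = 0.00238) and was lower in the iNSLC library and both clones than in fibroblasts. RAD50, the coiled-coil ATPase that holds the complex together, gave 94.2, 112, 87.6 and 91.4 CPM and did not pass the test (adjusted p = 0.619). With total counts its log2 fold change went from −0.073 to 0.50 and was called (adjusted p = 0.0228), and its row reaches far beyond the RefSeq gene on the upstream side. NBN stayed lower with total counts (log2 fold change −0.68, adjusted p = 0.0144).

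Of the 4 checkpoint kinases 3 rose and ATM fell. CHEK1, the kinase that ATR activates (chromosome 9, 52759310 to 52790704), had 8.18 CPM in fibroblasts, 28.5 in iNSLCs, and 41.4 and 49.8 in the iPSC clones, 5.58-fold higher in iPSCs (adjusted p = 0.000899). ATR rose 1.5-fold, from 34.5 CPM to 54.4 and 49.3 (adjusted p = 0.0207), the smallest ratio among the called rises, and DESeq2 did not call it (adjusted p = 0.0568). ATM, the main kinase that responds to double-strand breaks (chromosome 9, 36620587 to 36759552), went from 93.5 CPM in fibroblasts to 65.2 in iNSLCs and to 39.9 and 37.9 in the clones. Its level in iPSCs was 2.40-fold lower (log2 fold change −1.26, SE 0.12, adjusted p = 0.00127) and stayed lower with total counts (log2 fold change −0.70, adjusted p = 0.00642). CHEK2, the kinase downstream of ATM, did not follow it and gave 8.25, 34.0, 22.3 and 21.4 CPM, 2.65-fold higher in iPSCs than in fibroblasts (adjusted p = 0.00330) with the highest level in iNSLCs.

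**Figure D2:**
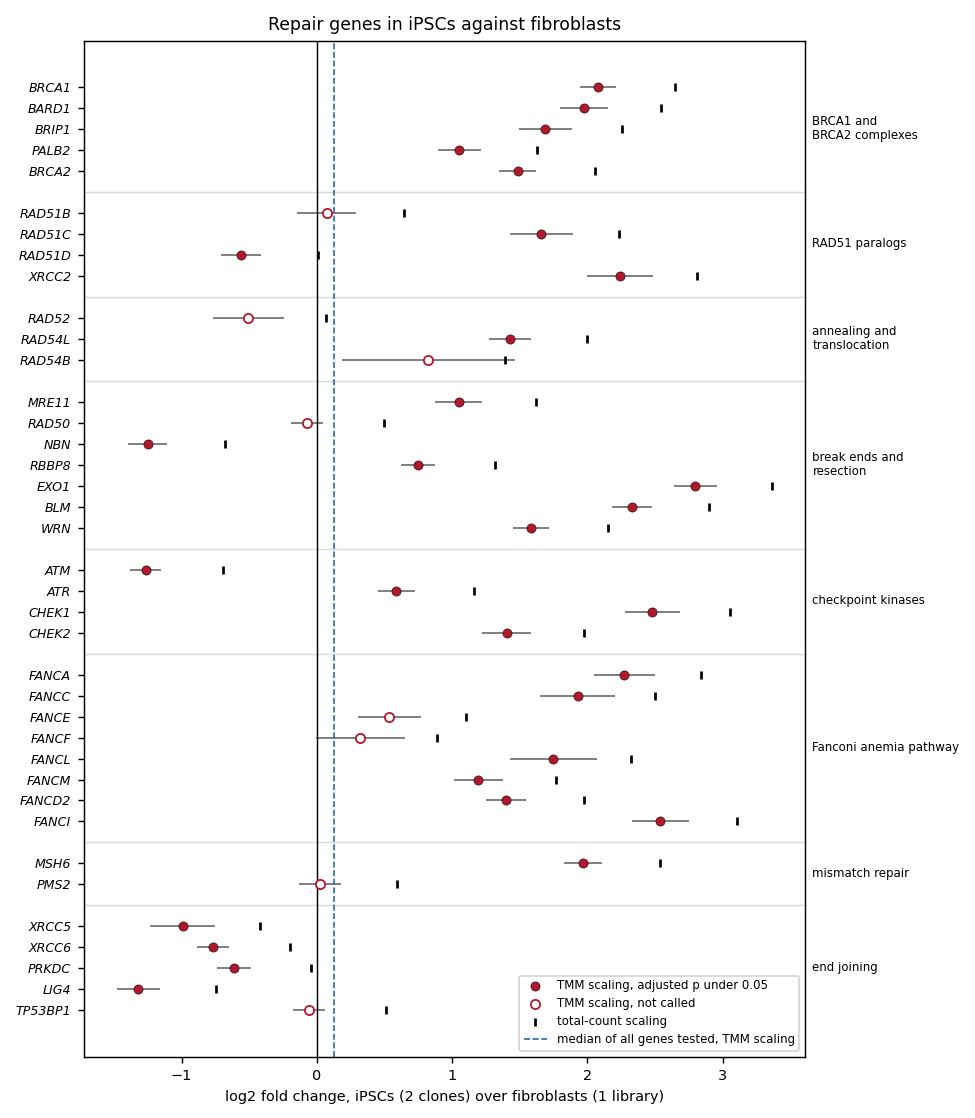
Log2 fold change of iPSCs over fibroblasts for the 38 tested genes (points, with standard errors as bars; 2 clones against 1 library), grouped by role, with filled points where the adjusted p was under 0.05 and the values with total-count scaling shown beside them. All 5 genes of the BRCA1 and BRCA2 complexes lie above 0, whereas XRCC5, XRCC6, PRKDC and LIG4 lie below it, and RAD51D, RAD52, RAD50 and TP53BP1 change sign with total counts.

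In the Fanconi anemia pathway 6 of 8 genes tested rose and none was called lower. FANCI, a subunit of the clamp that is placed on crosslinked DNA (chromosome 7, 54810982 to 54893569), had 11.2 CPM in fibroblasts, 71.3 in iNSLCs, and 57.3 and 72.9 in the iPSC clones, 5.80-fold higher in iPSCs (adjusted p = 0.000955). Its partner FANCD2 rose 2.64-fold to 125 and 143 CPM (adjusted p = 0.00188), and per kilobase of exon was more abundant than FANCI in every library. Of the core complex that modifies this clamp, FANCA gave 3.89, 24.6, 20.1 and 17.6 CPM and rose 4.84-fold (adjusted p = 0.00158). FANCC gave 3.74, 18.7, 12.4 and 16.0 CPM and rose 3.80-fold (adjusted p = 0.00460), with iNSLCs above both clones, as for FANCA. FANCL, the ubiquitin ligase subunit, rose 3.36-fold (adjusted p = 0.00981) from 2.25 CPM, and FANCM, the translocase that anchors the complex on DNA, rose 2.29-fold (adjusted p = 0.00511).

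The core subunits FANCE and FANCF were not called. FANCE gave 6.84, 10.7, 9.63 and 10.2 CPM (adjusted p = 0.109), with every other library above the fibroblasts, and was called higher with total counts (adjusted p = 0.0141). FANCF gave 4.60, 8.97, 6.67 and 4.87 CPM (adjusted p = 0.436), and its clone 2 lay close to the fibroblast level while clone 1 lay above it. FANCG had 1 read in fibroblasts, 2 in iNSLCs and none in either clone and was not tested. Of its exon bases, 99.6% overlap the rows of PIGO and STOML2, so its low count cannot be read as low expression. Exon overlap also touched FANCA (23.4%), FANCD2 (23.2%), FANCE (22.6%), FANCF (17.6%) and FANCI (16.6%).

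Of the mismatch repair genes on the list, MSH6, which recognises single-base mismatches (chromosome 3, 92786017 to 92814205), gave 51.2, 231, 191 and 209.9 CPM and rose 3.91-fold in iPSCs (adjusted p = 0.000668), with all 3 other libraries far above the fibroblasts. Of its exon bases, 17.7% overlap FBXO11. PMS2, which nicks the strand to be replaced, gave 24.6, 35.0, 23.9 and 26.1 CPM, and its 2 clones lay on either side of the fibroblast level (adjusted p = 0.909). With total counts PMS2 was called higher (adjusted p = 0.0305).

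Of the 5 end joining genes tested 4 were lower in iPSCs than in fibroblasts and none was called higher. LIG4, the ligase that seals the break (chromosome 11, 75537039 to 75545033), had 53.4 CPM in fibroblasts, 30.8 in iNSLCs, and 19.7 and 23.1 in the iPSC clones, 2.5-fold lower in iPSCs (log2 fold change −1.32, SE 0.16, adjusted p = 0.00283). All 3 reprogrammed libraries lay below the fibroblasts. XRCC5, which encodes the larger Ku subunit (chromosome 15, 118335953 to 118451967), gave 101, 77.3, 60.3 and 41.3 CPM, 1.98-fold lower (adjusted p = 0.0226), and the gap between its clones was the second largest of the members. XRCC6, the other Ku subunit, gave 84.4, 69.9, 48.4 and 50.7 CPM, 1.70-fold lower (adjusted p = 0.00537), and PRKDC, the kinase that Ku recruits, gave 52.1, 48.4, 35.2 and 33.0 CPM, 1.53-fold lower (adjusted p = 0.0145). For LIG4, XRCC5, XRCC6 and PRKDC alike the order was fibroblasts, iNSLCs and then both clones, from high to low, but with total counts this order held for LIG4 alone, and XRCC5, XRCC6 and PRKDC were highest in iNSLCs. TP53BP1, which shields ends from resection, gave 74.6, 146, 69.3 and 73.8 CPM and was not called against fibroblasts (adjusted p = 0.702). The position of XRCC4, the partner of LIG4, falls inside the row named VCAN and no row of its own was found, so it has no value.

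How far the end joining genes fell depended on the scaling of the libraries. With total counts LIG4 stayed lower (log2 fold change −0.75, adjusted p = 0.0152), but XRCC5 (−0.42, adjusted p = 0.168), XRCC6 (−0.20, adjusted p = 0.229) and PRKDC (−0.042, adjusted p = 0.805) were no longer called, and TP53BP1 turned from −0.058 to 0.51 (adjusted p = 0.0225). Their position relative to the recombination genes does not depend on it, since both scalings move the ratios of all genes alike.

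Against iNSLCs, 32 of the 38 members did not pass the test in iPSCs. EXO1 alone was called higher and ATM, CHEK2, XRCC6, PRKDC and TP53BP1 were called lower, 1 and 5 of 38 genes, where 14.1% of all genes tested were called in each direction. The log2 fold change of EXO1 from iNSLCs to iPSCs was 0.91 (SE 0.14, adjusted p = 0.0151). For ATM it was −0.74 (SE 0.12, adjusted p = 0.0159). TP53BP1 had the largest difference, −1.03 (SE 0.12, adjusted p = 0.00759), and its iNSLC level of 146 CPM stood above the 74.6 of fibroblasts and the 69.3 and 73.8 of the clones. The calls for XRCC6 (−0.50, adjusted p = 0.0408), PRKDC (−0.51, adjusted p = 0.0480) and CHEK2 (−0.64, adjusted p = 0.0486) lay close to the threshold and were not made by DESeq2, whose adjusted p-values were 0.131, 0.183 and 0.175. Called lower were 2 members with DESeq2 (11% of all genes) and 3 without a filter on low counts (10.9% of all genes), and called higher were 2 with DESeq2's RLE size factors in edgeR (14.8% of all genes). CHEK1 lay just outside the threshold (0.68, adjusted p = 0.0533). The median log2 ratio of iPSCs to iNSLCs over the members was −0.19.

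Between fibroblasts and iNSLCs there was 1 library on each side, so sizes are given without a test, with exact intervals that cover counting error only. Of the 38 genes, 20 were at least 2-fold higher in iNSLCs and RAD51D alone at least 2-fold lower, against 28.5% and 19.3% of all genes tested. The median log2 ratio was 1.02, and 0.10 over all genes. With total counts 28 genes were at least 2-fold higher and 0 lower, against 41.5% and 11.2% of all genes. The ratio for FANCI was 6.35 (95% interval 5.77 to 7.01), for FANCA 6.33 (95% interval 5.37 to 7.5) and for BARD1 5.64 (95% interval 5.01 to 6.36). For the end joining genes it was 0.576 (95% interval 0.533 to 0.622) for LIG4, 0.767 (95% interval 0.729 to 0.807) for XRCC5, 0.828 (95% interval 0.784 to 0.874) for XRCC6 and 0.930 (95% interval 0.870 to 0.994) for PRKDC. With total counts XRCC5, XRCC6 and PRKDC turned to higher in iNSLCs, with log2 ratios of 0.20, 0.31 and 0.48, and LIG4 stayed lower at −0.21. RAD51D had a ratio of 0.459 (95% interval 0.420 to 0.500).

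**Figure D3:**
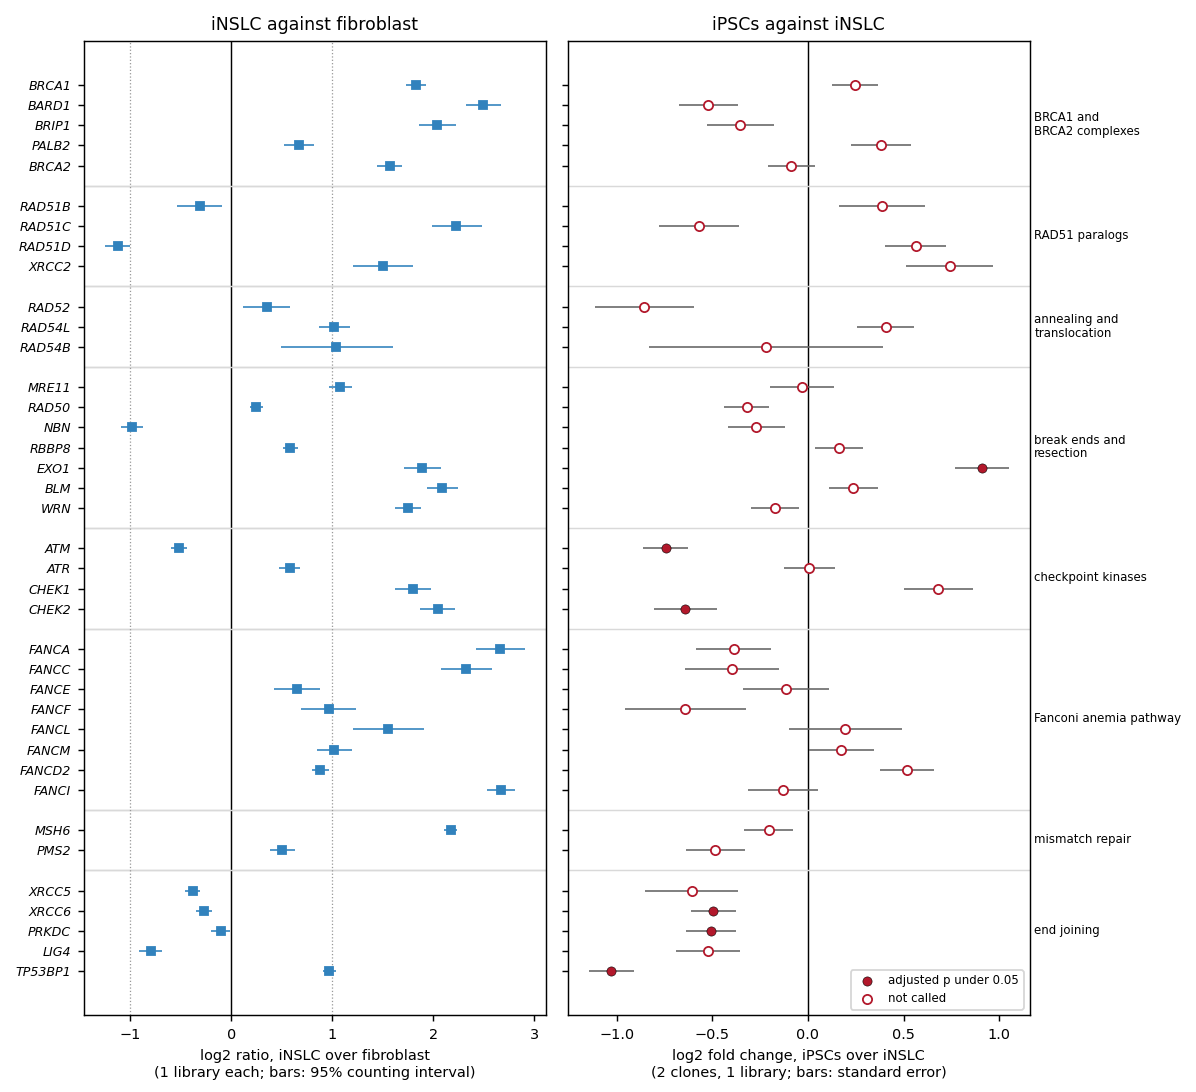
Left, log2 ratio of the iNSLC to the fibroblast library for each of the 38 tested genes, with 95% counting intervals as bars and dotted lines at 2-fold; right, log2 fold change of the 2 iPSC clones over the iNSLC library, with standard errors as bars and filled points where the adjusted p was under 0.05. On the left 20 genes lie past the upper 2-fold line, and on the right EXO1 is the filled point above 0 and ATM, CHEK2, XRCC6, PRKDC and TP53BP1 are those below it. The panels share the iNSLC library, and with total-count scaling the left panel moves up by about 0.58.

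Placed in order, 11 members were lowest in fibroblasts and highest in both clones with iNSLCs between, among them BRCA1, EXO1, BLM, CHEK1 and FANCD2, where 20% of all genes were. Another 6, namely NBN, ATM, XRCC5, XRCC6, PRKDC and LIG4, had the opposite order (19.1% of all genes), which NBN and LIG4 kept with total counts while ATM, XRCC5, XRCC6 and PRKDC became highest in iNSLCs. The iNSLC library was the highest for 15 members, BARD1, FANCA and MSH6 among them (25.8% of all genes), and the lowest for RAD51B and RAD51D (23% of all genes), although with total counts RAD51B was lowest in fibroblasts. It lay between the clones for RAD54B, MRE11, ATR and FANCI (12.2% of all genes). Beyond the spread of the clones these orders are a description, since neither fibroblasts nor iNSLCs had a replicate. With a margin of 1.5-fold over every other library, CHEK2 and TP53BP1 alone were highest in iNSLCs, against 11.6% of all genes, and no member was lowest (6.89% of all genes).

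The clones differed little from each other for these genes. RAD54B alone differed by 2-fold or more, against 9.05% of all genes tested, with a ratio of clone 2 to clone 1 of 2.14 (95% interval 1.42 to 3.33), on 29 and 120 reads. Next came XRCC5, with a log2 ratio of −0.55, and FANCF, with −0.45.

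Other repair genes were taken from lists set by function. As background, 29.6% of all genes tested were called higher in iPSCs than in fibroblasts and 27.5% lower. Of 37 further recombination and crosslink repair genes tested, 15 rose and 5 fell in iPSCs against fibroblasts, with a median log2 ratio of 0.37. RAD51AP1, which binds the recombinase and stimulates strand invasion, rose 6.15-fold from 8.31 CPM (adjusted p = 0.000590), the resection nuclease DNA2 4.98-fold (adjusted p = 0.000483), FANCB of the Fanconi core 5.46-fold (adjusted p = 0.00303) and RPA2, which coats single strands, 4.61-fold (adjusted p = 0.000945). Among 15 other genes of end joining and of the TP53BP1 pathway, 7 rose and 3 fell, with a median of 0.40. SHLD2, a shieldin subunit, rose 3.54-fold (adjusted p = 0.0155) and NHEJ1, which aligns ends for LIG4, rose 2.31-fold (adjusted p = 0.00637), whereas the gap-filling polymerases POLM and POLL were 2.65-fold (adjusted p = 0.00506) and 3.04-fold lower (adjusted p = 0.0214). Of 5 genes of alternative end joining, PARP1, from 66.4 to 296 and 328 CPM (adjusted p = 0.000535), and LIG1 (adjusted p = 0.00386) rose and none fell.

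Partners of the checkpoint kinases rose in 8 of 12 cases and fell in 1. WEE1, which holds back mitosis, rose 6.34-fold (adjusted p = 0.000334), TIMELESS 5.08-fold (adjusted p = 0.000729) and CLSPN, which links ATR to CHEK1, 4.33-fold (adjusted p = 0.000497). CDC25B, a phosphatase that drives entry into mitosis, was 2.55-fold lower (adjusted p = 0.00521). Of 17 genes named as targets of p53, 11 fell and 1 rose, with a median log2 ratio of −1.0. The cell cycle inhibitor CDKN1A gave 110.2, 15.2, 8.19 and 7.89 CPM (13.7-fold lower, adjusted p = 0.000186), PHLDA3 79.7, 4.85, 6.71 and 7.28 CPM, ZMAT3 348, 140.5, 46.3 and 48.8 CPM and FAS 29.4, 4.92, 5.4 and 6.88 CPM. The vector set carried a dominant-negative form of mouse Trp53, and its part in these values was not tested. Among the excision routes, 2 of 17 nucleotide excision genes rose (11.8%) and 4 fell (23.5%), with XPC, the damage sensor, 3.86-fold lower (adjusted p = 0.000507). Of 13 base excision genes 3 rose (23.1%) and 1 fell (7.69%), with the uracil glycosylase UNG 3.78-fold higher (adjusted p = 0.000558). Neither excision list passed the share of all genes in either direction.

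Genes of the cell cycle were also higher. Of 23 proliferation genes tested 20 rose and none was called lower, with a median log2 ratio of 2.15, and their summed level was 1044 CPM in fibroblasts, 3148 in iNSLCs, and 4034 and 4412 in the clones. MCM2, a subunit of the replicative helicase, rose 7.83-fold (adjusted p = 0.000341), CDK1, the mitotic kinase, 7.22-fold (adjusted p = 0.000384), and the origin licensing genes CDC6 and CDT1 6.84-fold (adjusted p = 0.000769) and 6.65-fold (adjusted p = 0.000683). Against iNSLCs 11 of the 23 rose in iPSCs and 1 of the 38 repair genes did, where 14.1% of all genes tested were called higher. The part of the share of cycling cells in the repair gene values was not tested.

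**Figure D4:**
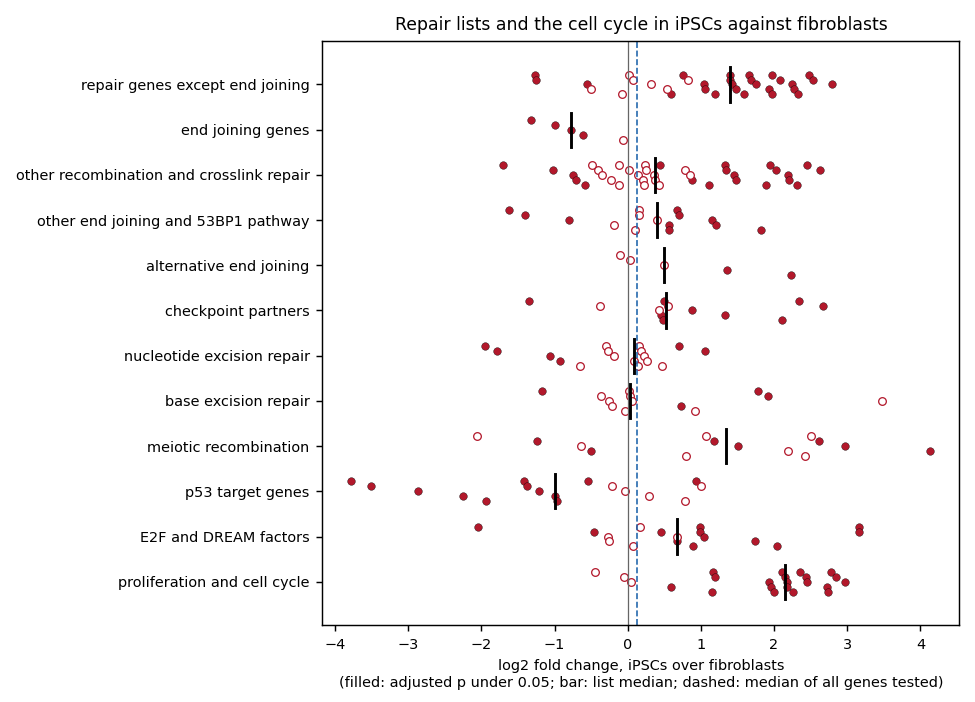
Log2 fold change of iPSCs over fibroblasts for each tested gene of the repair lists and of the p53, E2F and proliferation lists, with filled points where the adjusted p was under 0.05, a bar at each list's median and a dashed line at the median of all genes tested. The median of the proliferation list, 2.15, lies to the right of that of the repair genes without end joining, 1.40, and the end joining genes, at −0.77, and the p53 targets lie to the left, although with total counts every point moves to the right by 0.57.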

How the data were processed

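RNA was extracted from fibroblasts, iNSLCs and 2 iPSC clones of 1 pig and sequenced in bulk. The deposited values are raw counts of reads per Ensembl gene, not normalised. The submitters' processing notes name Trim Galore 0.4.0, STAR 2.5.3a, featureCounts 1.5.2 and the build Sscrofa11.1, and the authors' strand and overlap settings are not given in the sources used here. Exon lengths came from the same table. In the study's general protocol colonies were grown with mouse feeder cells, and reads from such cells were not separated here.

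Genes were named by identifier (14857) or, where at least 80% of the span lay within 1 named RefSeq gene, by position (1496). Among 11913 genes with both names, 94.3% matched. No sequences are shown, since no sequence tables were used here.

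Counts were tested with edgeR 4.0.16 (R 4.3.3, limma 3.58.1) by the quasi-likelihood test in 3 groups, after TMM scaling and edgeR's default filter on low counts, with p-values adjusted by Benjamini-Hochberg over the 15739 genes kept and called below 0.05. The clones gave the only residual degree of freedom, so p-values rest on the spread between 2 clones of 1 animal and assume that the single libraries vary like them. Ratios used a floor of 3 counts per library, and intervals are exact at 95%. Standard errors (SE) were derived from the test, as the absolute log2 fold change divided by the square root of its F statistic. RLE size factors, total counts, no filter, a filter of 1 CPM in 2 libraries, DESeq2 1.42.0, leaving out each clone, and names by identifier only were tried as alternatives. The edgeR step was tested on simulated data.

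The members and lists were chosen with earlier results of these data known. Every member is named, and its 4 levels are given if it had 1 of the 3 largest ratios of its role, was not called or was called against the majority in iPSCs against fibroblasts, was called against iNSLCs, stood 1.5-fold apart in iNSLCs, or had 1 of the 3 largest ratios between clones. From other lists, up to 4 called genes with the largest ratios are named.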

Additional observations from a re-analysis of the deposited data

How the results depend on the processing

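Of the members' calls in iPSCs against fibroblasts, all 38 kept direction and side of the threshold with RLE size factors and with a filter of 1 CPM in 2 libraries, 36 with DESeq2, and 29 with total counts. The count of members called lower was 3 with total counts. Log2 fold changes that turned with total counts were those of RAD51D (0.0090), RAD52 (0.064), RAD50 (0.50) and TP53BP1 (0.51). With total counts 11 of 11 members kept the order from low in fibroblasts to high in iPSCs and 2 of 6 the opposite order, a check added after seeing the data. The result for the 11 could hardly differ and says nothing of their robustness. Total counts lower the fibroblast level against every other library and move iPSC to iNSLC ratios by only 0.013 on the log2 scale. The total-count scaling by construction adds a constant to every ratio, and the median log2 ratio to fibroblasts became 1.69 for iPSCs and 1.6 for iNSLCs. Against iNSLCs, the count called higher was 2 with RLE size factors, and the count called lower was 3 without a filter and 2 with DESeq2. The log2 fold change of ATR against iNSLCs, which lay near 0, turned to −0.0057 with total counts and to −0.021 with the 1 CPM filter. The count of members at least 2-fold lower in iNSLCs than in fibroblasts was 2 with RLE size factors, 0 with total counts and 0 with names by identifier only, which leaves out RAD51D. Leaving out a clone leaves no residual degree of freedom and hence values with no test, in which the median log2 ratio ranged from 1.10 to 1.23 against fibroblasts and from −0.29 to −0.11 against iNSLCs. Using the neighbouring row for RAD54B, or only members that share under 10% of exon bases, were alternatives chosen after seeing the data, and left 24 of 38 and 17 of 28 members called higher than in fibroblasts and 7 lower in each case. No paired analysis was possible because all libraries came from 1 animal, with 1 library each of fibroblasts and iNSLCs. The cause of the other changes was not tested. Depth limits RAD54B most, with 51, 65, 29 and 120 reads.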

Other observations

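Genes of meiotic recombination, which are usually active in germ cells, had widely different levels. Of 18 such genes 14 were tested, and 5 rose (35.7%) and 2 fell (14.3%) in iPSCs against fibroblasts. The share called higher lay near the 29.6% of all genes tested, of which 27.5% were called lower. Their median log2 ratio was 1.34 for the meiotic list and 0.13 for all genes. MSH4, which acts at meiotic crossovers, had 71.3, 53.7, 52.6 and 48.0 CPM, and was chosen for mention after its values were seen. PSMC3IP and MND1, which form a pair that helps the recombinases to exchange strands, gave 1.73, 10.4, 12.6 and 14.6 CPM (adjusted p = 0.00136) and 3.50, 20.6, 20.3 and 22.6 CPM (adjusted p = 0.00104) in fibroblasts, iNSLCs and clones 1 and 2. TEX11, a gene of meiotic chromosome pairing, gave 0.0864, 0.733, 1.6 and 1.55 CPM (adjusted p = 0.00989), so that its level stayed low in every library, and 29.6% of the exon bases of PSMC3IP are shared with another gene.

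Of 17 genes of the E2F family and of the DREAM complex, which control the transcription of cell cycle genes, 10 rose and 2 fell in iPSCs against fibroblasts. E2F7 gave 5.35, 55.7, 44.0 and 52.1 CPM (adjusted p = 0.000459), E2F8 9.57, 27.0, 42.7 and 35.9 CPM (adjusted p = 0.00146) and E2F5 4.15, 40.8, 36.0 and 38.1 CPM (adjusted p = 0.000387). RBL2, a pocket protein of the complex that represses these genes in resting cells, gave 26, 29.3, 6.67 and 5.88 CPM and was 4.14-fold lower in iPSCs than in fibroblasts (adjusted p = 0.00128). Of 3 other mismatch repair genes tested, MSH3 rose 1.69-fold (adjusted p = 0.0279) and none was called lower in iPSCs than in fibroblasts. The share called higher, 33.3%, lay near the 29.6% of all genes tested. This list's median log2 ratio of iPSCs to fibroblasts was −0.16, and against iNSLCs 1 of the 3 was called lower.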
